A study of Homo sapiens with 4 samples.

Results

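The genes described here are the zinc finger genes of human chromosome 19 whose symbol is ZNF followed by a digit. They were taken from the deposited table of an ARIEL knockdown experiment by their chromosome and symbol alone, and make up 251 of its 22361 rows. RNA was sequenced from Jurkat, a human T-cell leukaemia line (T-ALL). There were 2 libraries of cells infected with lentivirus for an shRNA (shARIEL) that targets the long non-coding RNA ARIEL, and 2 control libraries of cells infected with lentivirus for an shRNA against GFP (shGFP). All 4 were under puromycin selection and were collected 72 h after infection. The question is how the RNA of these genes differs when ARIEL is depleted.

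Most of these genes encode proteins that bind DNA through a row of C2H2 zinc fingers, each finger holding a zinc ion between a pair of cysteines and a pair of histidines. In many of them a KRAB domain at the N-terminus binds TRIM28 (KAP1), a scaffold that brings the histone H3 lysine 9 methyltransferase SETDB1, HP1 proteins and the NuRD deacetylase to the bound site. The family is known for silencing transposable elements, and it grew by repeated local duplication, so that its genes stand in clusters along chromosome 19.

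Values are rlog expression, a log2-scale transform that shrinks noisy values to the mean of their gene and makes real changes look smaller. Of the 251 rows, 183 reached log2 of 10 in their mean over the 4 libraries and were tested, 26 were listed at 0 in every library, and 42 lay below the limit with means between -1.72 and 3.09. The depth of the libraries is unknown, since the values are no counts, and counting error cannot be estimated. Nothing in the labels says that replicates came from separate cultures, and the p-values then measure only the spread between these libraries. The locus known from the study's background as ARIEL, XLOC_005968, had rlog values of 10.58 and 10.55 in shARIEL libraries, against 12.02 and 11.91 in shGFP libraries. Of the cell type markers listed, all 10 T-lineage genes were tested, with means from 9.35 to 16.73. Of these, CD3G (-0.30), CD28 (-0.26), TAL1 (-0.23) and CD2 (-0.15) were lower in shARIEL libraries (limma, adjusted p under 0.05). CD7 (0.23), LMO1 (0.22) and CD247 (0.15) were higher, and CD3D, CD3E and LCK were not called. The summed level of that list on the linear scale was 254068 and 259177 in shARIEL libraries, against 269084 and 271659 in shGFP libraries. Of the markers of other cell types, 2 of 6 B-lineage, 2 of 6 myeloid, 1 of 5 erythroid and 2 of 6 adherent-cell genes were tested, and 9 of these 23 genes were listed at 0, among them MS4A1, CSF1R, SPI1, HBA1, COL3A1 and EPCAM. The tested ones had a mean of 11.1 (CD79A), 7.61 (EBF1), 7.29 (COL1A1), 5.35 (KLF1), 4.69 (KRT8), 4.37 (ITGAM) and 3.85 (CD14). Of these COL1A1 (-0.18) and KLF1 (-0.07) were lower and CD79A (0.29) and KRT8 (0.07) were higher. On the linear scale the summed B-lineage level was 2615 and 2642 in shARIEL libraries, against 2128 and 2245 in shGFP libraries. The summed level in shARIEL and shGFP libraries lay at 36.0 to 36.4 and 36.7 to 38.1 for the myeloid list, 45.99 to 46.19 and 47.5 to 48.7 for the erythroid list, and 175.5 to 175.8 and 191.2 to 197.0 for the adherent list. CD79A, a B-cell gene, had 11.23 and 11.25 in shARIEL libraries, against 10.91 and 10.99 in shGFP libraries. The part of these markers in the results was not tested. In bulk RNA, fewer cells of a type and less RNA per cell cannot be told apart.

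More chromosome 19 ZNF genes were lower than higher after ARIEL knockdown, by small amounts. Of the 183 tested, 74 were lower and 16 higher in shARIEL libraries (limma, adjusted p under 0.05 over all 14601 tested genes), and 93 were not called. Over all tested genes 44.4% were called, 22.4% lower and 22.1% higher; among these ZNF genes the shares were 40.4% lower and 8.74% higher. The median difference was -0.08, against 0.00 over all tested genes, and the single differences ran from -0.34 to 0.28 with standard errors between 0.02 and 0.05. In 136 of the 183 genes the groups did not overlap, against 10322 of all 14601 tested genes (70.7%). Both shARIEL libraries lay below both shGFP libraries in 108 of the 136 and above them in 28. The share over all genes is not split by direction. The median rlog of the 183 genes was 10.93 and 10.90 in shARIEL libraries, against 11.04 and 11.00 in shGFP libraries, while the median over all tested genes stood between 11.31 and 11.32 in the 4 libraries. These medians of the ZNF genes do not overlap between groups.

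The median difference moved when single libraries were left out, and the counts moved when transcript GC content was taken into account. Without shARIEL replicate 1 the median difference of these genes was -0.09, and without shARIEL replicate 2 it was -0.06. Without shGFP replicate 1 it was -0.05, and without shGFP replicate 2 it was -0.09, against -0.08 with all 4 libraries. Over all tested genes the median lay between -0.00052 and 0.00083 in these fits. With each library's trend with transcript GC content and length removed, 51 ZNF genes were lower and 23 higher, with a median of -0.03. Of the called ZNF genes 68.9% were then lower, against 82.2% with the trend kept. Of the 74 lower genes 50 were lower in both analyses, of the 16 higher genes 13 were higher in both, and 0 were called with opposite signs. These calls rest on a spread shared by genes of the same level: with each gene's own variance limma called 0 of the 183 (unadjusted p under 0.05: 38 lower and 9 higher). The authors' deposited table has 61 of these genes lower and 13 higher at an adjusted p under 0.05, where over all genes 19.3% were lower and 20.1% higher. All 61 and all 13 were called in the same direction here. A fall of 1.5-fold or more in the authors' deposited table was seen for 3 tested members (ZNF792, ZNF114 and ZNF724P) and a rise of that size for 0.

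A short motif was common in the promoters of these genes. RefSeq promoter windows (GRCh38.p14, 250 bases before to 50 after the annotated start) were found for 214 members. The motif CCGGAA on either strand, the core bound by ETS factors such as GABPA, was in 56.5% of them, against 17.6% of all 27305 windows and 29.4% of the windows of tested genes. It was in 65.2% of the 69 windows of lower members, 53.3% of the 15 of higher members and 48.2% of the 83 of members not called. It was also in 59.4% of the 138 windows of tested members with a KRAB pattern in their coding sequence, and 37.9% of the 29 without. Whether these shares of the motif differ was not tested. CpG dinucleotides numbered 20 in the median member window, against 14 in all windows and 26 in those of tested genes. The E-box CAGCTG was in 17.96% of the windows of tested members and 17.0% of those of tested genes, the E-box CAGATG in 11.98% and 9.54%, and TGACG, the core of the cAMP response element, in 35.3% and 34.2%, each on either strand. Over all windows these shares were 17.7%, 14.8% and 25.0%. Each motif was counted on its own, whether or not matches of different motifs overlapped. A match describes the letters of the window and shows no binding. The windows of 2 falls (ZNF530, ZNF567) and 2 rises (ZNF57, ZNF787) are shown, because the motif stands in genes of both directions; capitals mark CCGGAA or its reverse complement, and each is given 5′ to 3′ on the gene's strand.
ZNF530 (chr19:57599635-57599934, plus strand): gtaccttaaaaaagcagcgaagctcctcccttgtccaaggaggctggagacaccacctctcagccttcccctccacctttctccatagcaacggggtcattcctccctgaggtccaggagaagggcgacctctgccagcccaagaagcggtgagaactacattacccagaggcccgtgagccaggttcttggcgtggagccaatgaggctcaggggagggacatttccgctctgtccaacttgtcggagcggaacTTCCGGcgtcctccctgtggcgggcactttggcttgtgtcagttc
ZNF567 (chr19:36666684-36666983, plus strand): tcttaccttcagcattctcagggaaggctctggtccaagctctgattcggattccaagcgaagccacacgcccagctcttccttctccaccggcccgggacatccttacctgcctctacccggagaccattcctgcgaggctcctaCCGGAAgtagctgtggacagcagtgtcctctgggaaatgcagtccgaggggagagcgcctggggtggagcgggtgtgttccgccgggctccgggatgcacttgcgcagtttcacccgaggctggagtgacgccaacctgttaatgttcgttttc
ZNF57 (chr19:2900678-2900977, plus strand): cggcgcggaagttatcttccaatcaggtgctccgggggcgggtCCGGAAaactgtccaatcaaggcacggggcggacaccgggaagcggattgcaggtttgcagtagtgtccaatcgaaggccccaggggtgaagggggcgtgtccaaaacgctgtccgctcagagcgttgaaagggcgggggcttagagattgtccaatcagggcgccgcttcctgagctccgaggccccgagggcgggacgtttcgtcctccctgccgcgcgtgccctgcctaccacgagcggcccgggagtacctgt
ZNF787 (chr19:56121246-56121545, minus strand): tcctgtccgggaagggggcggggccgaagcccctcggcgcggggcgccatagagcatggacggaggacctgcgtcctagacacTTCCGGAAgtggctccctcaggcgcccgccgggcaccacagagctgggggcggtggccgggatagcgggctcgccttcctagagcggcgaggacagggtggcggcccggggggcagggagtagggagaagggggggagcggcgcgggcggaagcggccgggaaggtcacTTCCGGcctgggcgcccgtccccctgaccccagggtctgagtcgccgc

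**Figure D1:**
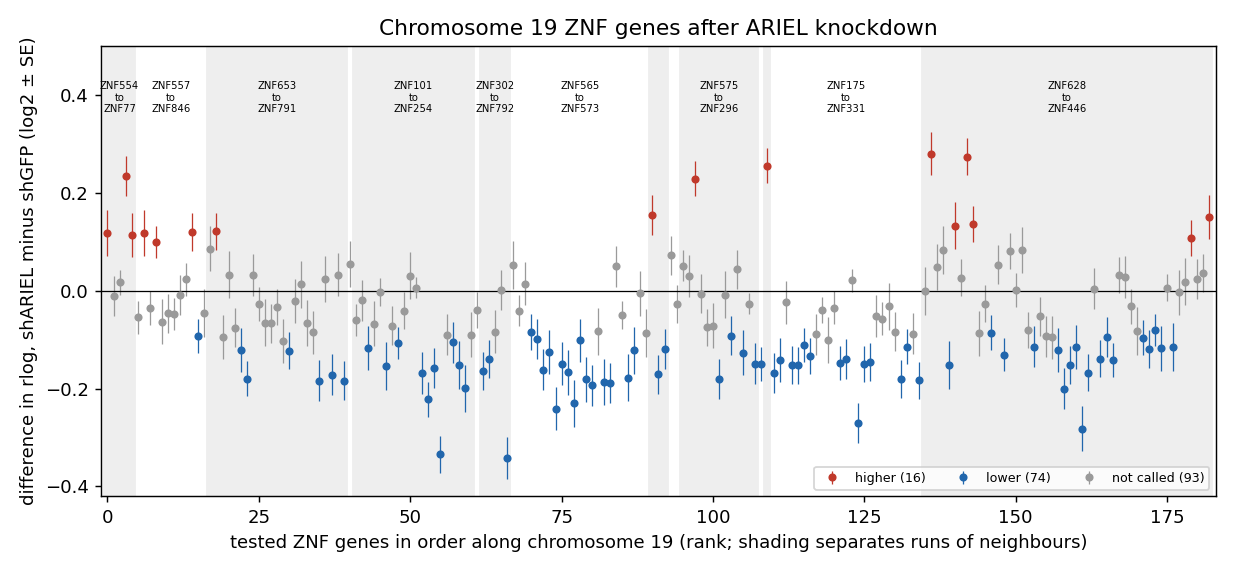
Difference in rlog (shARIEL minus shGFP, log2 scale; points with standard error) for the 183 tested ZNF genes in their order along chromosome 19, with shading that separates runs of neighbouring genes. The 74 lower genes are spread over most runs, and the 16 higher genes stand mainly near both ends.

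The 8 largest falls ran from -0.34 to -0.20. ZNF792 had 10.69 in each shARIEL library, against 11.00 and 11.06 in shGFP libraries. It differed by -0.34 ± 0.04 (SE, with 2 libraries in each group; adjusted p = 3.24e-14 by limma), and the authors' deposited table has it 1.58-fold lower. ZNF724P had 11.77 and 11.67 in shARIEL libraries, against 12.10 and 12.01 in shGFP libraries (difference -0.33 ± 0.04). ZNF530 had 10.14 and 10.17 in shARIEL libraries, against 10.44 in each shGFP library (difference -0.28 ± 0.05). Groups without overlap were required for this choice, so in all 8 both shARIEL libraries were lower than both shGFP libraries. Over all tested genes 70.7% had groups without overlap. Of the 100-base windows of the ZNF724P transcript 52.1% also occur in transcripts of other genes, so its reads may be split between copies; ZNF792 and ZNF530 have no such window.

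ZNF28 had 11.25 and 11.11 in shARIEL libraries, against 11.50 and 11.40 in shGFP libraries (difference -0.27 ± 0.04), and overlaps ZNF468 on the same strand in GENCODE 29. ZNF567 had 10.42 and 10.40 in shARIEL libraries, against 10.72 and 10.58 in shGFP libraries (-0.24 ± 0.04). ZNF345 had 9.77 and 9.78 in shARIEL libraries, against 10.00 and 10.01 in shGFP libraries (-0.23 ± 0.05). ZNF567 varied most of these between its shGFP replicates. ZNF100 had 12.10 and 12.04 in shARIEL libraries, against 12.33 and 12.26 in shGFP libraries (-0.22 ± 0.04), and ZNF549 had 10.94 in each shARIEL library, against 11.12 and 11.15 in shGFP libraries (-0.20 ± 0.04). These 5 falls range from 1.31-fold (ZNF549) to 1.41-fold (ZNF28) in the authors' deposited table. Once the GC and length trend was taken out, the difference was -0.34 for ZNF792, -0.28 for ZNF724P, -0.27 for ZNF530 and -0.09 for ZNF100, and all 8 genes were still called.

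The largest rises were ZNF579 and ZNF787, whose transcripts have a GC content of 65.9% and 70.3%. ZNF579 had 10.82 in each shARIEL library, against 10.52 and 10.56 in shGFP libraries. It differed by 0.28 ± 0.04 (SE, with 2 libraries in each group; adjusted p = 2.06e-09 by limma). ZNF787 had 11.78 and 11.87 in shARIEL libraries, against 11.51 and 11.60 in shGFP libraries (0.27 ± 0.04). ZNF473 encodes ZFP100, a component of the U7 snRNP machinery that cuts the 3′ ends of replication-dependent histone transcripts. It had 12.40 and 12.42 in shARIEL libraries, against 12.16 and 12.15 in shGFP libraries (0.26 ± 0.04). ZNF57 had 11.37 and 11.30 in shARIEL libraries, against 11.12 and 11.07 in shGFP libraries (0.23 ± 0.04). ZNF428 had 12.37 and 12.47 in shARIEL libraries, against 12.17 and 12.22 in shGFP libraries (0.23 ± 0.04). In each of these 5 genes both shARIEL libraries were higher than both shGFP libraries, which the choice of the rises required.

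The other rises were smaller. ZNF546 differed by 0.15 ± 0.04 and ZNF446 by 0.15 ± 0.05. ZNF444 had 12.08 and 12.10 in shARIEL libraries, against 11.89 and 12.02 in shGFP libraries (0.14 ± 0.04), so its shGFP replicates differed by nearly as much as the groups. Of the windows of ZNF446, 34.6% are shared with another gene and it overlaps ZNF324 on the same strand. In the authors' deposited table the 8 rises lie between 1.18-fold (ZNF444) and 1.46-fold (ZNF579). With the GC and length trend removed ZNF444 was not called (difference 0.02; limma, adjusted p = 0.539), ZNF787 differed by 0.15, ZNF428 by 0.14, ZNF579 by 0.19 and ZNF446 by 0.11, and ZNF473 (0.28), ZNF57 (0.24) and ZNF546 (0.25) were at least as large as before. Without shGFP replicate 1, ZNF444 was not called (0.07; limma, adjusted p = 0.173), nor was ZNF446 without shARIEL replicate 2 (0.13; limma, adjusted p = 0.0779).

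**Figure D2:**
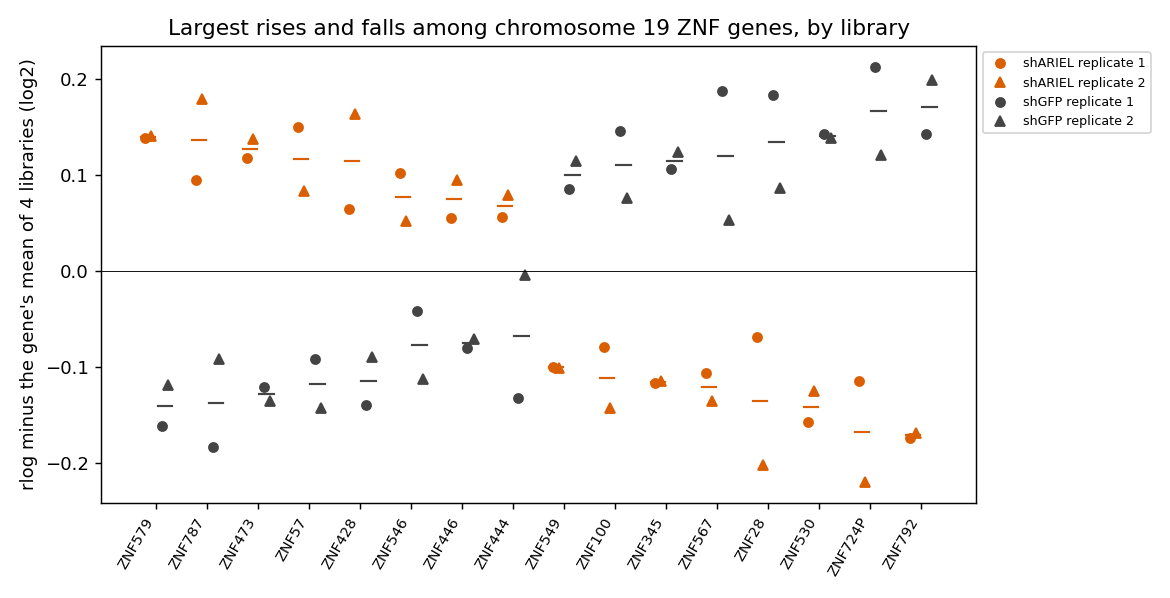
Value of each library minus the gene's mean over the 4 libraries (rlog, log2 scale) for the 8 largest rises and 8 largest falls; dashes mark group means, colours the groups and symbols the replicates. The 16 genes were chosen among called members whose groups do not overlap, so none shows overlap.

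Of the 13 tested members listed for a known role, 9 were lower, 0 higher and 4 not called; of all 183, 40.4% were lower and 8.74% higher. ZNF420 (Apak), a repressor of p53-dependent apoptosis genes, had 10.92 and 10.93 in shARIEL libraries, against 11.16 and 11.08 in shGFP libraries (-0.19 ± 0.04, SE; limma, adjusted p = 2.32e-05). ZNF224, a KRAB repressor first described on the aldolase A gene and a partner of WT1, had 11.00 and 11.09 in shARIEL libraries, against 11.24 and 11.22 in shGFP libraries (-0.18 ± 0.04). ZNF568, whose mouse homologue Zfp568 silences a placental Igf2 transcript, had 7.81 and 7.85 in shARIEL libraries, against 8.04 and 7.98 in shGFP libraries (-0.18 ± 0.05). The groups do not overlap in any of these genes, as in 70.7% of all tested genes. ZNF331 differed by -0.18 ± 0.04, ZNF175, known for limiting HIV transcription in macrophages, by -0.17 ± 0.04, and ZNF382, a repressor of NF-kappaB signalling, by -0.16 ± 0.04. ZNF85 differed by -0.15 ± 0.05 and ZNF765 by -0.11 ± 0.04; ZNF765 overlaps ZNF525 on the same strand. With the GC and length trend removed ZNF568 and ZNF85 were not called (limma, adjusted p = 0.0738 and 0.164). ZNF765 lost its call without shGFP replicate 1 (-0.06; limma, adjusted p = 0.235) and without shARIEL replicate 2 (-0.07; limma, adjusted p = 0.283). ZNF85 lost it without shARIEL replicate 2 (limma, adjusted p = 0.0956) and without shGFP replicate 2 (limma, adjusted p = 0.0779).

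ZNF274, which binds the 3′ ends of other ZNF genes and recruits SETDB1 there, had 8.96 and 9.002 in shARIEL libraries, against 9.11 and 9.08 in shGFP libraries (-0.12 ± 0.05; adjusted p = 0.0409 by limma). Its adjusted p was 0.107 in the authors' deposited table, and the call was lost without shARIEL replicate 1 (limma, adjusted p = 0.230), shARIEL replicate 2 (0.0788) or shGFP replicate 1 (0.145). ZNF91, which represses SVA retrotransposons, had 10.99 and 10.79 in shARIEL libraries, against 11.03 and 10.93 in shGFP libraries, and was not called (-0.09 ± 0.04; limma, adjusted p = 0.0713). Its groups overlap. ZNF808, known from pancreas development, differed by -0.10 ± 0.05 (limma, adjusted p = 0.0669) and overlaps ZNF701 on the same strand. ZNF350 (ZBRK1), a BRCA1 partner, differed by -0.02 ± 0.04 (limma, adjusted p = 0.692). ZNF93, a repressor of L1 elements, and ZNF649 were below the tested range with mean rlog of 1.19 and -1.01, and both rows of ZNF8 were listed at 0.

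The 3 members with the highest mean were ZNF146, ZNF714 and ZNF101. On a scale of mean rlog minus log2 of transcript length in kilobases ZNF146 stood at 12.60, ZNF714 at 10.84 and ZNF101 at 11.35, while ZNF428 stood at 11.81. ZNF146 (OZF), a protein made almost wholly of fingers, had 14.53 and 14.47 in shARIEL libraries, against 14.59 and 14.49 in shGFP libraries, and was not called (-0.04 ± 0.03; limma, adjusted p = 0.293). ZNF714 differed by -0.11 ± 0.03 (limma, adjusted p = 0.00318), and was not called once the GC and length trend was taken out (-0.01), without shARIEL replicate 2 (limma, adjusted p = 0.0945) or without shGFP replicate 1 (-0.07; limma, adjusted p = 0.135). ZNF101 differed by -0.06 ± 0.03 and was not called.

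Genes with a KRAB pattern made up 67 of the 74 falls and 8 of the 16 rises. A KRAB pattern was found in the translated coding sequence of 151 tested members and not in 32; the pattern misses diverged boxes, among them those of ZNF136 and ZNF473. Of the 151, 67 were lower and 8 higher, with a median difference of -0.09. Of the 32 without the pattern, 7 were lower and 8 higher, with a median of 0.02. Of all tested genes 22.4% were lower and 22.1% higher. Below 42% transcript GC content 41 of 73 genes with the pattern were lower (56.2%, median -0.11). Of the 9 without it in that band 5 were lower (55.6%, median -0.08). From 50% up, 2 of 9 genes with the pattern were lower (22.2%) and 3 higher (median 0.04). Of the 19 without it there, 1 was lower (5.26%) and 7 were higher (median 0.07). The bands from 42% to 46% and from 46% to 50% each held 2 tested genes without the pattern. After removal of the GC and length trend, 45 genes with the pattern were lower (29.8%) and 17 higher (11.3%), with a median of -0.03. Of those without it 6 were lower and 6 higher (18.75% each, median 0.00). All genes then had 25.1% lower and 27.7% higher. By number of fingers, with the trend kept, 5 of 12 members with at most 5 fingers were higher and 2 lower (median 0.07). Of 39 with 6 to 9 fingers 5 were higher and 13 lower (median -0.04). Of 46 members with 10 to 12 fingers 22 were lower and 2 higher (median -0.10), of 47 with 13 to 15 fingers 20 were lower and 2 higher (median -0.08), and of 39 with 16 or more 17 were lower and 2 higher (median -0.08). The 32 genes without the pattern include GC-rich genes with few fingers such as ZNF428, ZNF444 and ZNF446. Their median transcript GC content was 59.2%, against 42.1% for those with the pattern. The difference between these classes was not tested.

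ZNF genes on other chromosomes had a more even split. Of 213 tested, 43 were lower and 48 higher (median 0.00). Among the 88 of them with a KRAB pattern 20 were lower and 18 higher (median -0.00), at a median transcript GC content of 43.2%. Other genes of chromosome 19 went the other way: of 777 tested, 65 were lower and 335 higher (median 0.07), at a median GC content of 60.7%. With the GC and length trend removed, 51 of 183 chromosome 19 ZNF genes were lower and 23 higher, while of 208 ZNF genes on other chromosomes 28 were lower and 62 higher, and of all genes 25.1% were lower and 27.7% higher. Whether these shares differ was not tested.

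**Figure D3:**
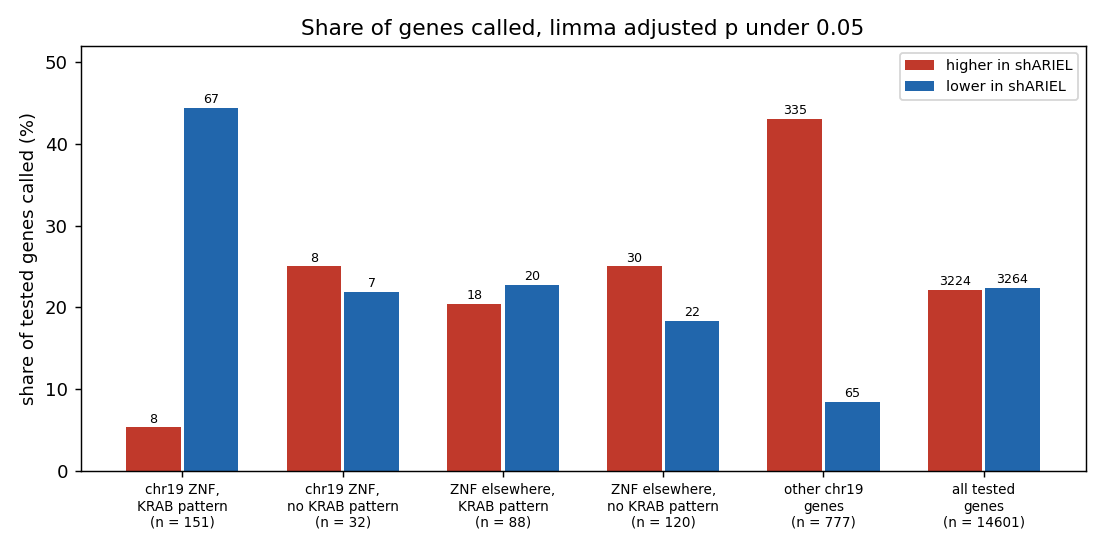
Share of tested genes called higher or lower in shARIEL libraries (%; limma, adjusted p under 0.05), with the number of genes above each bar. Of chromosome 19 ZNF genes with a KRAB pattern 67 of 151 were lower and 8 higher, while other chromosome 19 genes had 65 lower and 335 higher of 777.

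The difference moved with transcript GC content. Over the 183 genes Spearman's rho between GC content and the difference was 0.47, and it was 0.41 over 12719 genes; the genes share the same 4 libraries and are not independent. Between replicates (replicate 2 minus replicate 1) rho over the 183 genes was 0.56 in shARIEL libraries and 0.50 in shGFP libraries, so GC content also separated libraries of 1 group. Of 82 members below 42% GC, 46 were lower and 1 higher (median -0.11); of the other 2857 genes in that band 41.2% were lower and 7.63% higher (median -0.06). Of 52 members from 42% to 46% GC, 16 were lower and 2 higher (median -0.06), against 29.2% lower and 15.8% higher of other genes (median -0.02). Of 21 from 46% to 50%, 9 were lower and 3 higher (median -0.05), against 23.5% lower and 19.9% higher of other genes (median -0.00). Of 28 members from 50% up, 3 were lower and 10 higher (median 0.05), against 11.9% and 35.5% of other genes (median 0.04). In the bands below 50% the members' median was the lower, and from 50% up it was not. The part of GC content in the calls was not tested beyond these values.

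**Figure D4:**
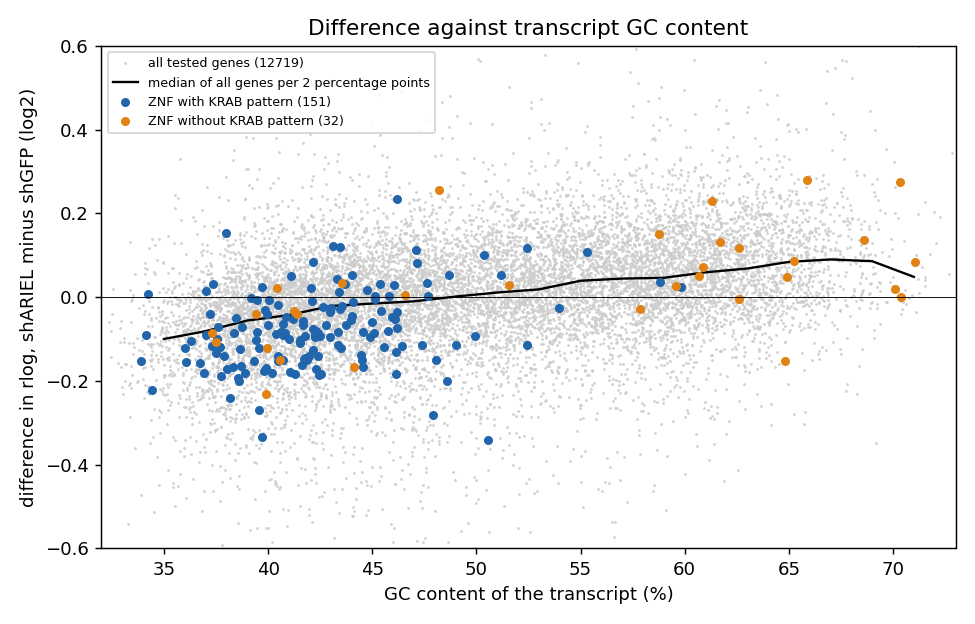
Difference in rlog (shARIEL minus shGFP, log2 scale, axis limited to 0.6 either way) against GC content of the transcript (%) for all tested genes (grey, black line their median) and for chromosome 19 ZNF genes with and without a KRAB pattern. Most ZNF genes with the pattern lie below 50% GC, where the median of all genes is also at or below 0.

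The order along the chromosome shows runs with falls alone, runs with rises alone and mixed runs. Grouping members whose neighbours lie within 1 Mb in the GENCODE 29 annotation gave 16 runs, in which the first and last gene name each run here. The counts below that keep the GC and length trend stand beside 22.4% lower and 22.1% higher of all tested genes. Of the 183 tested members 40.4% were lower and 8.74% higher. In the run from ZNF565 to ZNF573, 15 of 23 tested genes were lower and 0 higher (median -0.12), among them ZNF567, ZNF345, ZNF420, ZNF569, ZNF527, ZNF568 and ZNF540. In the run from ZNF175 to ZNF331, 14 of 25 were lower and 0 higher (median -0.11), among them ZNF28, ZNF331, ZNF525, ZNF175 and ZNF616. In the run from ZNF101 to ZNF254, whose transcripts have the lowest median GC content of the runs with at least 5 tested genes (37.3%), 10 of 20 were lower and 0 higher (median -0.10). Once that trend was taken out, these runs had 9 lower and 2 higher, 12 lower and 1 higher, and 4 lower and 2 higher genes, in the order given. Their medians were then -0.05, -0.06 and -0.01. Of all genes 25.1% were then lower and 27.7% higher. The share of lower genes was below that of all genes in the run from ZNF101 to ZNF254 (4 of 20). It was above that of all genes in the runs from ZNF565 to ZNF573 (9 of 23) and from ZNF175 to ZNF331 (12 of 25). Whether these shares differ was not tested.

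The run from ZNF628 to ZNF446 at the far end of the long arm was mixed, with 18 of 48 tested genes lower and 6 higher (median -0.04). Its lower genes include ZNF530, ZNF549, ZNF134 and ZNF274 and its higher genes ZNF579, ZNF787, ZNF446, ZNF444, ZNF580 and ZNF584. The run from ZNF653 to ZNF791 had 6 of 23 lower, led by ZNF443 (-0.18 ± 0.04, SE) and ZNF791 (-0.18 ± 0.04), and 1 higher, ZNF627 (0.12 ± 0.04). At the other end of the chromosome, the run from ZNF554 to ZNF77 had 3 of 5 genes higher and 0 lower. Besides ZNF57 these were ZNF554, with 10.09 and 10.10 in shARIEL libraries, against 9.97 and 10.00 in shGFP libraries, and ZNF77, with 10.64 and 10.66 in shARIEL libraries, against 10.51 and 10.57 in shGFP libraries. In both genes the groups do not overlap, as in 70.7% of all tested genes. The adjusted p of ZNF554 was 0.0528 in the authors' deposited table, which has 2 genes of this run higher. The next run, from ZNF557 to ZNF846, had 3 of 12 genes higher and 1 lower, and the run from ZNF575 to ZNF296 had 1 of 13 higher (ZNF428) and 4 lower (ZNF224, ZNF180, ZNF235 and ZNF226). Neighbours could differ: of the 3 genes in the run from ZNF546 to ZNF780A, ZNF546 was higher by 0.15 while ZNF780A (-0.12 ± 0.04) and ZNF780B (-0.17 ± 0.04) were lower.

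The run from ZNF302 to ZNF792 had 3 of 5 genes lower (ZNF792, ZNF302 and ZNF181) and 0 higher. Single genes set apart from other members included ZNF473, which was higher, and ZNF333 and ZNF507, which were not called. ZNF536 was listed at 0 in all 4 libraries.

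Copies and overlaps limit what can be said of some members. Of the 183 tested genes, 118 share no 100-base window with another gene and 11 share more than 20% of their windows, 6 of which were called. A same-strand overlap with another gene of the table was found for 32 tested members. ZNF709, ZNF763, ZNF788 and ZNF8 each have 2 rows under different gene IDs. Of the 26 members listed at 0, 22 were matched to GENCODE 29 and 5 of these overlap another row.

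With the GC and length trend kept, cofactors through which KRAB proteins act were called about as often as other genes. Of 42 genes listed for the KRAB and HUSH silencing pathway, 41 had a row and were tested; 12 were higher and 6 lower, with a median of 0.02. The 43.9% called stands beside 44.4% of all tested genes. Of the list 29.3% were higher and 14.6% lower, against 22.1% and 22.4% of all tested genes. TRIM28, the scaffold itself, had 15.34 and 15.39 in shARIEL libraries, against 15.20 and 15.24 in shGFP libraries (0.14 ± 0.03, SE; limma, adjusted p = 3.32e-05). SETDB1, the methyltransferase it recruits, had 13.33 and 13.38 in shARIEL libraries, against 13.41 in each shGFP library, and was not called (-0.05 ± 0.03). SUMO3, a modifier that TRIM28 carries, was the highest of the list at 0.28 ± 0.03. The HP1 genes CBX5 (-0.24 ± 0.03) and CBX1 (-0.15 ± 0.03) were lower. The NuRD genes MTA1, MTA2, MBD3, HDAC1 and CHD4 were higher, by 0.08 to 0.14, and RBBP4 was lower (-0.15 ± 0.03). With the GC and length trend removed 20 of the 41 were higher (48.8%) and 7 lower (17.1%), with a median of 0.05. Of all genes 27.7% were then higher and 25.1% lower. These differences were not tested.

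The 7-base words GATGACA and AGATGAC were searched in 3′ UTRs. They had been chosen in an earlier analysis of this same comparison and are no independent evidence. Of the 177 tested members with an annotated 3′ UTR, 27 carried at least 1 of them (15.3%), against 15.6% of all 12521 genes searched. Of the 27, 19 were lower and 0 higher (median -0.12). Of the 150 members without them, 54 were lower and 16 higher (median -0.06). The median 3′ UTR was 4041 bases long in the 27 and 1606.5 in the 150, and the part of length in this was not tested. Over all genes, 41.5% of carriers were lower and 11.4% higher, against 19.7% lower and 26.4% higher of genes without the words. Sites in named members are shown here because they let the word be read in its context, with the word in capitals and the sense strand of the GENCODE 29 transcript as DNA, 5′ to 3′.
ZNF792: caagaagaaagAGATGACagagtcaatat
ZNF549: gaagctgttgaAGATGACacaaacaatgg
ZNF100: tcattttaacaAGATGACtactagaaaac
ZNF420: caacacatccaAGATGACttggttggggg
ZNF224: ctcaatgagatGATGACAtagacacaata
ZNF146: cagacaaaaatAGATGACatggtcatcta
In ZNF792, ZNF549 and ZNF146 both words overlap in the same 8 bases. ZNF792, ZNF549, ZNF100, ZNF420 and ZNF224 were lower, while ZNF146 was not called.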

How the data were processed

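The deposited table gives, per the file headers, rlog values (log2 scale) for every library, followed by the authors' log2 fold change with SE, test score, p-value and adjusted p. Per the submitters' processing notes the tools were DESeq2 1.12.4, HTSeq 0.6.1 and STAR 2.5.2a, and the build was hg19; the notes assign no roles. The annotation used for counting is not stated. The table holds 0 spike-in rows.

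Groups come from sample titles. limma 3.58.1 (R 4.3.3; lmFit, eBayes with a trend on level) was run on the rlog values with no pseudocount over the 14601 rows with a mean of at least log2 of 10, with Benjamini-Hochberg adjustment at 0.05. The prior degrees of freedom were infinite, so genes of 1 level share 1 spread, and SEs are too small for genes that vary more. The fit was tested on simulated data.

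Members, lists and tests were chosen with earlier results of these data known. Named genes are the 8 largest rises and falls among called, non-overlapping members with a mean of at least log2 of 50, the 3 highest means and 16 genes with a known role; others named in the runs and cofactor list were chosen after their values were seen. GENCODE 29 (GRCh38), matched by gene ID for 247 of 251 members and all 183 tested, gave GC content and length (spline trend with 5 degrees of freedom each), 3′ UTRs, runs, overlaps, coding sequence for KRAB and finger patterns, and 100-base windows shared between genes. Overlap and shared windows make the values of 32 and 65 tested members uncertain. Values of some genes of the cofactor list are not reported here. Alternatives tried are in the closing section.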

Additional observations from a re-analysis of the deposited data

How the results depend on the processing

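With each gene's own variance in place of the shared one, limma called 0 members and 0 of all genes in either direction (unadjusted p under 0.05: 9 members higher and 38 lower, 2320 genes higher and 2241 lower). Leaving out 1 library at a time gave 8 to 17 higher and 38 to 77 lower members, and 2004 to 3061 higher and 2221 to 3127 lower genes. The labels do not say whether libraries with the same replicate number share a batch. Over these 2 pairs the correlation of deviations was 0.20 in all tested genes and 0.28 in the members. Replicate 2 minus replicate 1 rose with GC content over the members in both groups (rho 0.56 in shARIEL and 0.50 in shGFP libraries). With the replicate as a block, 17 members were higher and 85 lower, and 3722 and 3704 of all genes. Whether the pairs share a batch was not tested. Removing the GC and length trend gave 23 higher and 51 lower members. Other filters, no trend of the prior spread, median centring and quantile normalization gave 15 to 17 higher and 63 to 77 lower, the tests in the authors' deposited table gave 13 higher and 61 lower, and the genes with known GC and length, with the trend kept (chosen after seeing the data), 16 and 74. The difference of ZNF350 turned to 0.00404 after quantile normalization, that of ZNF146 to 0.00765 and that of ZNF91 to 0.00964 with the GC and length trend removed. Leaving out libraries, ZNF146 ranged from -0.09 (-0.0884, without shGFP replicate 2) to 0.00559 (without shGFP replicate 1), and ZNF91 from -0.19 (-0.188, without shARIEL replicate 1) to 0.00797 (without shARIEL replicate 2). None of these 3 genes was called with the main settings, and the cause was not tested. Of 26 named genes that were called, 19 kept the call under every alternative but the own variance. The named genes include the 8 largest called rises and 8 largest called falls of these same data. Their count of kept calls therefore does not speak for the other called members. Depth is unknown, so its limit on low genes cannot be given.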

Other observations

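Other zinc finger genes of chromosome 19, with symbols outside the ZNF series, numbered 17 rows, of which 7 were tested and 6 were listed at 0. ZFP14 (-0.22 ± 0.04, SE) and ZFP82 (-0.13 ± 0.04) were lower in shARIEL libraries and ZSCAN22 (0.14 ± 0.05) was higher (limma, adjusted p under 0.05). The 3′ UTR words TGTTGTC and GTTGTCA, tied to higher genes in the earlier analysis of the same data, were in 41 of the 177 tested members with a 3′ UTR (23.2%), against 17.5% of all genes searched; 20 of those members were lower (48.8%) and 3 higher (7.32%). Of the 136 members without these words 53 were lower (39.0%) and 13 higher (9.56%), while of all genes with them 25.5% were lower and 24.4% higher. These differences were not tested.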
